A study of Arabidopsis thaliana with 23 samples.

Results

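The wild-type flower bud H3K27me3 landscape is the set of 7914 broad domains of trimethylated lysine 27 on histone H3 (H3K27me3) deposited for wild-type Arabidopsis thaliana. They were called from the 2 pooled H3K27me3 samples, and the 6 deposited lists of the series hold 36883 entries in all. A gene counts as marked here if at least 50% of its annotated body lay under domains. By that rule 6505 of 27444 protein-coding genes were marked, which is 23.7% (95% Wilson interval 23.2 to 24.2%), and 8216 of 37899 annotated genes of any type. The list is a single call on pooled samples, so no value below has a replicate error. Intervals cover counting error only and treat neighbouring genes as independent.

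H3K27me3 is the mark of Polycomb silencing. In plants, Polycomb repressive complex 2 (PRC2) writes it, LHP1 and PRC1 proteins bind it, and Jumonji-type demethylases remove it. The mark usually lies over whole gene bodies, and in Arabidopsis it is known at regulators of flowering, meristems and seeds whose activity is limited to certain cells or stages.

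The study profiled H3K27me3 and the demethylase REF6 by chromatin immunoprecipitation with sequencing, in 23 samples and 10 groups. Chromatin came from unopened flowers of 5-week-old plants, grown in long days at 22 °C by day and 20 °C by night. The wild type was untreated Col0 with the demethylase genes REF6, ELF6 and JMJ13 intact, and an anti-H3K27me3 antibody was used. For side values, the elf6-3 ref6C jmj13G triple mutant (2 samples, same antibody) and REF6-GFP in ref6-3 plants crosslinked with DSG (3 samples, GFP beads) were used. A whole flower bud holds many cell types, so a domain present in fewer cells and a domain with less mark per cell cannot be told apart. No expression values were used here, and the labelled tissue was therefore not checked against expressed markers.

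The domains covered 20.9 Mb, or 17.6% of the 119.0 Mb that the listed genes and domains span on the 5 nuclear chromosomes. The domains' own fold enrichment, a ratio given by the authors for each domain, ran between 1.14 and 7.54 with a median of 2.16. Coding genes took up 52.4% of the covered length and 54.1% of the whole span. The share of coding genes that were marked lay between 22.4% on chromosome 4 and 25.4% on chromosome 2.

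Most coding genes had no covered base, and among genes touched by a domain partial coverage was more common than full coverage. No base was covered in 19187 genes (69.9%), and the whole body was covered in 3450 genes (12.6%). Of the others, 262 genes were covered over up to 10%, 1490 over 10 to under 50%, 2125 over 50 to 90% and 930 over 90 to under 100%. The marked genes closest to the limit were SUS3, a sucrose synthase, at 50.02%, AT4G22530 at 50.03% and EXPA21, an alpha-expansin, at 50.08%. The genes just under it were LCR38 at 49.94%, and ORP2A and AT2G20170 at 49.93% each.

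Marked genes were short. Their median length was 1508 bp, against 2078 bp over all coding genes. Among coding genes cut into 5 classes of equal size by length, 40.7% were marked in the shortest class (up to 1146 bp), 31.9% in the next, then 21.4% and 14.8%, and 9.6% in the longest class (3311 bp and more). Whole-body coverage followed the same order, with 26.9% of the shortest class and 3.26% of the longest. A fixed share of a body is reached by a narrower domain in a short gene, so median lengths are given beside several of the gene groups below.

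**Figure D1:**
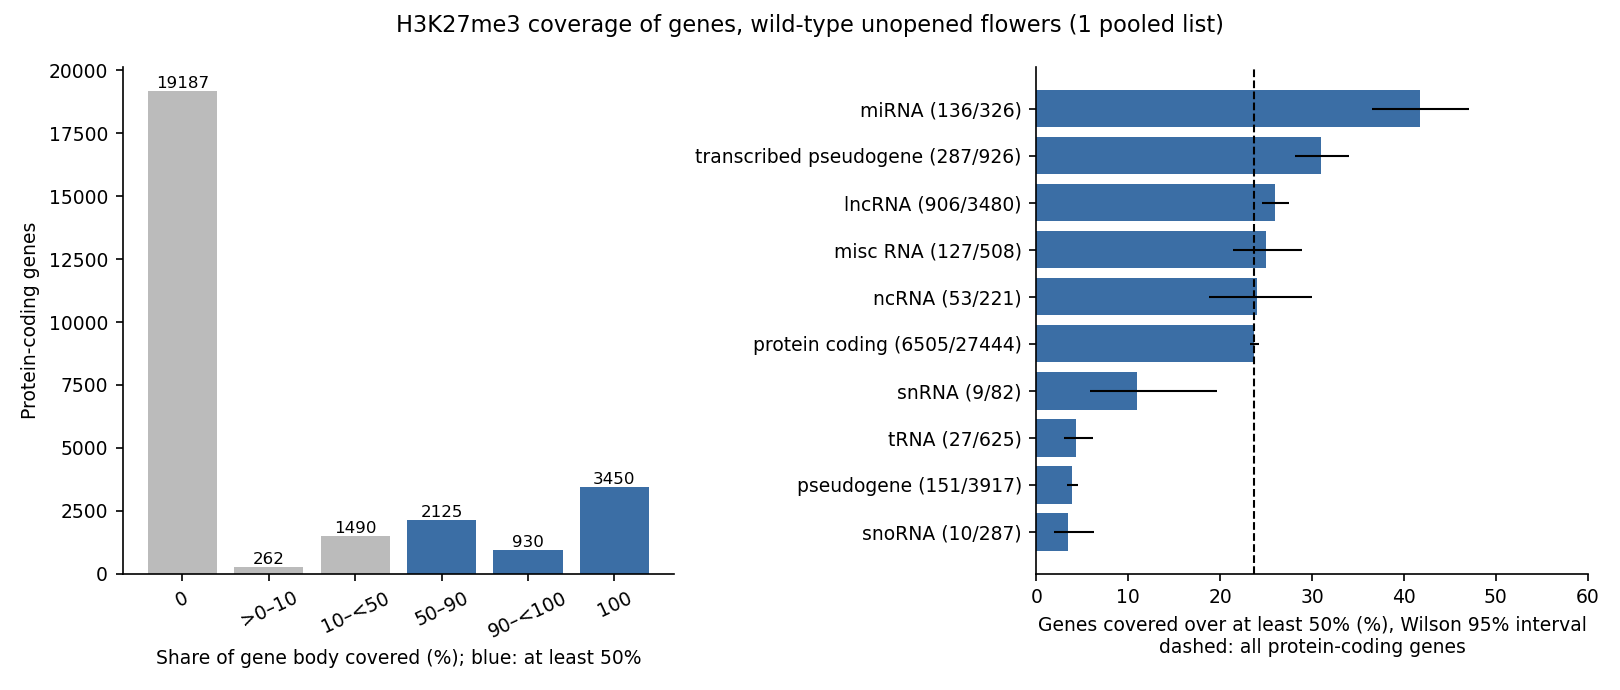
Left: number of protein-coding genes in each class of body coverage by wild-type H3K27me3 domains, with the 6505 genes at 50% or more in blue. Right: share of each annotated gene type covered over at least 50%, with Wilson 95% intervals as bars and the 23.7% of all coding genes as a dashed line, for types with at least 80 genes. miRNA genes stand highest at 41.7%, and pseudogenes, tRNA and snoRNA genes stand under 5%.

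Among the other gene types, microRNA genes had the highest marked share of the types with at least 80 genes. Of 326 miRNA genes, 136 were marked (41.7%, interval 36.5 to 47.1%), and among the 237 that overlap no coding gene 112 were (47.3%). Long noncoding RNA genes (lncRNA) were marked in 906 of 3480 cases (26.0%). That share was 36.4% for the 2059 lncRNA genes free of coding genes and 11.0% for the 1421 that overlap one. Pseudogenes split by annotation: 287 of 926 transcribed pseudogenes (31.0%) were marked, against 151 of 3917 other pseudogenes (3.85%). Genes for small structural RNAs were rarely marked, with 27 of 625 tRNA genes (4.32%), 10 of 287 snoRNA genes (3.48%) and 9 of 82 snRNA genes (11.0%). These RNA genes are short, with a median of 144 bp for miRNA, 73 bp for tRNA and 92 bp for snoRNA genes, so short length alone went with both high and low shares. Of the 4 listed rRNA genes 3 passed the limit. These sit in repeated sequence, and the sources used here do not say how reads matching several copies were placed. Any effect of read placement on them was not tested.

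Marked miRNA loci were spread over many families. In families of 3 or more loci 58 of 104 loci were marked (55.8%), against 47 of 166 loci that are alone in their family (28.3%). The families named next were chosen after their values were seen. MIR156 and MIR157, whose miRNAs repress SPL factors and hold plants juvenile, were marked at 7 of 10 and 4 of 4 loci. MIR172, which acts on AP2-type factors later in development, was marked at 4 of 5 loci. MIR165 and MIR166, which restrict class III homeodomain factors and so set leaf polarity, were marked at 2 of 2 and 6 of 7 loci. MIR164, which acts on CUC1 and CUC2, and MIR319, which acts on TCP factors, were each marked at 3 of 3 loci. MIR169, which acts on NF-YA subunits, was marked at 12 of 14 loci. MIR395 and MIR399, which serve sulfate and phosphate supply, were marked at 5 of 6 and 4 of 6 loci. In 7 families of 3 or more loci no locus was marked, 29 loci in all, and MIR398, which acts on copper enzymes, MIR447 and MIR854 were among them. Loci that lie side by side can share a domain, as MIR169d and MIR169e did, and each locus was counted on its own in these shares. The neighbouring loci MIR169i, MIR169j, MIR169k, MIR169l, MIR169m and MIR169n all had a fold of 3.55. MIR399d, MIR399e and MIR399f all had a fold of 3.03.

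Named gene families differed widely in the share of marked members. Many hold few genes, and their shares carry a wide counting error. Families were built from gene symbols and synonyms, 98 in all with 3044 genes. A family holds only the genes matched by name, so members under other names can be missing. Of the 3044 genes 33.5% were marked, against 22.5% of the 24400 genes in no family. Over all 10374 coding genes that have a symbol the share was 21.8%. Of the 91 families with at least 10 members, 51 lay above the coding share of 23.7% and 40 below it. In 25 families more than 50% of members were marked, and in 19 fewer than 5%. The 25 came to 12 when 80% of the body had to be covered, and to 16 with domains of −log10 q of at least 10, the stricter list. By class, signalling peptides were marked in 74 of 106 cases (69.8%), transcription factors in 393 of 837 (47.0%), metabolic enzymes in 238 of 510 (46.7%) and SAUR proteins, a group of auxin-induced growth regulators, in 31 of 80 (38.8%). Transporters followed with 128 of 332 (38.6%), the cell wall class with 65 of 184 (35.3%) and defensin-like peptides with 39 of 115 (33.9%). The cell wall class includes 17 glycine-rich proteins (GRP) matched by name, not all of which are wall proteins. Receptors and kinases were marked in 35 of 279 cases (12.5%), and genes of basal functions in 16 of 603 (2.65%).

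**Figure D2:**
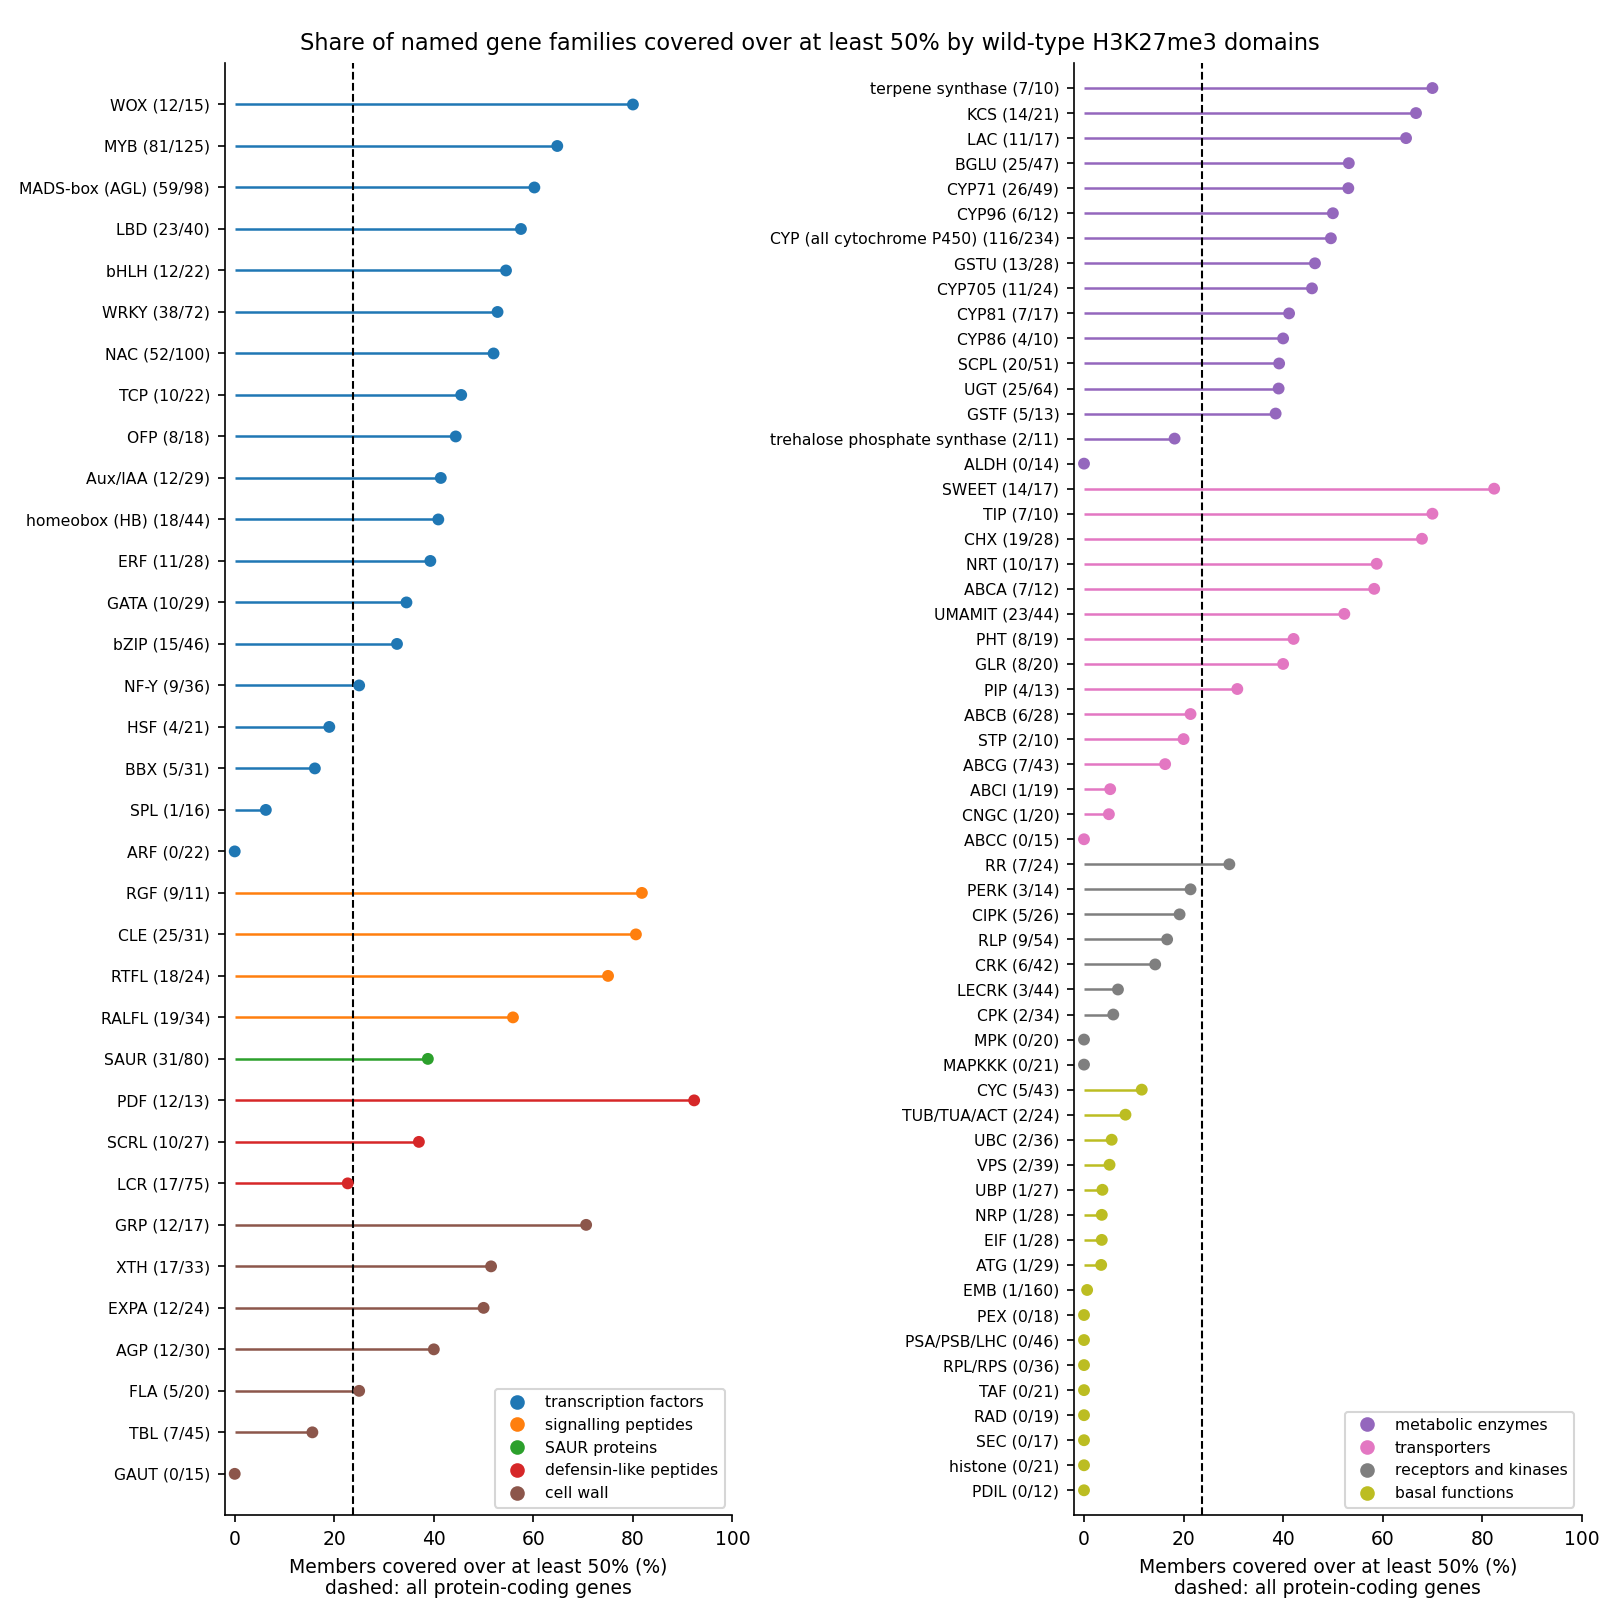
Share of members covered over at least 50% by wild-type H3K27me3 domains for the 91 named families with at least 10 members, coloured by class, with marked and total members in brackets. The dashed line is the 23.7% of all coding genes. Families of transcription factors and transporters lie on both sides of it, every family of signalling peptides lies to its right, and every family of basal functions lies to its left.

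Transcription factor families ran between no marked member and all members marked. All 6 YABBY genes were marked, factors of the abaxial side of lateral organs: INO, YAB2, YAB3, YAB5 and AFO were covered over 100% and CRC over 95.1%. Of the 15 WUSCHEL-related WOX genes 12 were marked, and the other 3 (WOX10, WOX13 and WOX14) had no covered base. Of 9 KNOX genes, which include the meristem factors STM and KNAT1, 7 were marked, and KNAT3 and KNAT5 had no covered base. R2R3 MYB factors were marked at 81 of 125 genes, MADS-box factors at 59 of 98, LBD factors at 23 of 40, WRKY factors at 38 of 72 and NAC factors at 52 of 100. Marked MADS-box and MYB members seldom shared a domain within their family: the 59 marked MADS-box genes lay in 58 domains, and the 81 MYB genes in 79. Genes of other families in these domains are not part of this count.

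ARF and SPL genes were almost free of the mark. No ARF gene was marked among 22, with no covered base in any of them, although 12 of the 29 Aux/IAA genes, which encode the repressors that bind ARF proteins in auxin signalling, were. At a limit of 80% the Aux/IAA count was 7. The median length was 3500 bp for ARF genes and 1740 bp for Aux/IAA genes. Of 16 SPL genes only SPL8 passed the limit, at 76.5%, and the other 15 had no covered base, whereas the MIR156 loci that act on many SPL genes were mostly marked. Heat shock factors were marked at 4 of 21 genes (19.0%, interval 7.67 to 40.0%), BBX factors at 5 of 31 (16.1%, interval 7.09 to 32.6%) and NF-Y subunits at 9 of 36 (interval 13.8 to 41.1%). All 3 intervals include the coding share of 23.7%.

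Signalling peptides and defensin-like peptides differed by family. CLE peptides, which signal to meristems and vascular cells, were marked at 25 of 31 genes, and the 6 others (CLE1, CLE16, CLE18, CLE20, CLE25 and CLE45) had no covered base. Root meristem growth factors (RGF) were marked at 9 of 11 genes, RTFL growth regulators at 18 of 24 and RALF-like peptides at 19 of 34. At a limit of 80% the CLE, RTFL and RALF-like counts were 19, 16 and 16. With the stricter list they were 23, 13 and 14. The RGF count was 9 in both settings. Of the 6 EPF/EPFL peptides matched by name, which pattern stomata and organs, EPF1 and CLL1 were covered over 100% and CHAL over 97.5%. EPF2 was covered over 21.6%, and STOMAGEN and CLL2 had no covered base. Plant defensins (PDF) were marked at 12 of 13 genes and the related LCR genes, without those also named PDF, at 17 of 75. CLE, RTFL, PDF and LCR genes have similar median lengths, between 579 and 829 bp, and the share marked in the shortest length class was 40.7%.

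Enzyme and wall families mixed marked and free members. Cytochrome P450 genes were marked at 116 of 234 genes. Fatty acid elongases of the KCS family, which make wax and suberin precursors, were marked at 14 of 21 genes, laccases at 11 of 17, terpene synthases at 7 of 10 and beta-glucosidases at 25 of 47. At a limit of 80% the laccases came to 7 of 17 (41.2%). In the CYP86 family, CYP86A1, a fatty acid hydroxylase of root suberin, was covered over 100% by a domain of 6.6-fold enrichment. CYP86A2 and CYP86A8 were covered over 47.7% and 40.9%, and CYP86A4 had no covered base. Aldehyde dehydrogenases (ALDH, 14 genes) and GAUT pectin synthases (15 genes) held no marked gene. Expansins were marked at 12 of 24 genes and XTH wall enzymes at 17 of 33.

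Transporters differed by subfamily. SWEET sugar exporters were marked at 14 of 17 genes, and SWEET1, SWEET2 and SWEET17 had no covered base. CHX cation exchangers were marked at 19 of 28 genes and TIP aquaporins of the vacuole at 7 of 10, against 4 of 13 PIP aquaporins of the plasma membrane. At a limit of 80% the CHX genes came to 12 of 28, the TIP genes to 3 of 10 (30.0%) and the PIP genes to 3 of 13 (23.1%), and with the stricter list 5 of 10 TIP genes were marked. In the PIN auxin efflux family, PIN5 and EIR1 were covered over 100%. PIN3 lay just under the limit at 49.7%, and PIN7 was at 16.7%. ABC transporters were marked at 7 of 12 genes of subfamily A, 6 of 28 of B, 7 of 43 of G, 1 of 19 of I and none of the 15 of C. The count for B was 3 at a limit of 80% and 4 with the stricter list, and that for I was 0 in both. The median gene length was 4826 bp in ABCA and 6212 bp in ABCC.

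Receptor-like and protein kinases were mostly free of the mark in the wild type, as were most coding genes of similar length. Their class had a median length of 2784 bp, and 14.8% of all coding genes of 2404 to 3310 bp were marked. The class also counts 24 response regulators (RR), 7 of them marked. Cysteine-rich receptor kinases (CRK) were marked at 6 of 42 genes, 3 of them at a limit of 80% or with the stricter list, and lectin receptor kinases (LECRK) at 3 of 44. In the triple mutant 28 CRK genes were covered over at least 50%, against the 6 in the wild type, and 17 LECRK genes, against 3 in the wild type. Of all coding genes 30.9% passed that limit in the triple mutant. No MPK (20) or MAPKKK (21) gene, the kinases of the MAP kinase cascade, was marked, and 2 of 34 calcium-dependent CPK genes were (CPK14 and CPK20, both covered over 100%).

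Among genes of basal functions matched by name, no gene for ribosomal proteins (36), photosystem and antenna proteins (46) or histones (21) was marked. The same held for TAF subunits (21), peroxins (18), SEC (17), RAD (19) and PDIL proteins (12). Of 160 EMB genes, needed for embryo development, only emb2204 passed the limit, at 85.1%. The few marked members of other basal families were chosen for mention after their values were seen. They were eIF6B at 87.1%, NRPE3B at 95%, G18E at 100%, UBC12 at 72.5%, UBC29 at 82.6%, UBP11 at 69.0%, VPS9B at 81.1% and VPS24.2 at 100%. In the cytoskeleton family, ACT9 at 100% and ACT4 at 85.9% were the only marked genes of 24. Among 43 cyclins, CYCD7;1 at 96.9%, CYCT1;1 at 100%, CYCB1;5 at 83.5%, CYCP2;1 at 81.9% and CYCP4;2 at 59.5% were marked. The median length of the basal genes was 2423 bp, and 14.8% of all coding genes of that length class were marked.

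Of 72 genes in 7 lists of known roles, 41 were marked (56.9%), against 23.7% of all coding genes. The lists were chosen with earlier results of these data known, so their counts describe the chosen genes only. In the floral identity list 14 of 15 genes were marked, and AP2, a sepal and petal factor, had no covered base. The coverage varied among the marked ones: PI, a petal and stamen factor, was covered over 96.1%, SEP1 over 81.1%, SHP1, a carpel and fruit factor, over 79.8%, LFY, which turns on floral identity, over 70.1% and SEP4 over 67.3%. The LFY body was touched by 2 separate domains. The domains over AP3 and PI had folds of 4.79 and 4.91, against 2.34 for SEP3, 1.9 for SEP1 and 1.61 for SEP4. The domain over AP3 was 2851 bp wide, and that over AP1, a sepal and petal factor, 13898 bp.

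In the flowering time list 8 of 12 genes were marked. FLC, the main repressor in the vernalization pathway, was covered over 100% by a domain of 6.91-fold enrichment and 7966 bp, chr5:3173349-3181314. Its relatives MAF4 and MAF5 were covered over 84.6% and 77.2%, whereas MAF2, MAF3 and FLM had no covered base. The florigen gene FT was covered over 63.5% and its relative TSF over 99.3%. TFL1, which opposes FT, and the repressor SVP were covered over 100%, and the activator SOC1 over 95.8%. CO, which activates FT in long days, had no covered base.

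Meristem and seed regulators were nearly all marked. STM, KNAT1, WUS, CLV3 and CUC2 were covered over 100%, KNAT6 over 97.2% and KNAT2 over 87.8%. The boundary genes CUC1 at 29.0% and CUC3 at 41.7% fell under the limit. Both had a REF6-GFP summit in the body or within 1 kb, and CUC2 had none. Among the other listed genes, the marked SHP1, SHP2, MAF4 and MAF5 had one, as did REF6 and EF1A, which had no covered base. No further listed gene had one. All 10 embryo and seed genes were marked, with LEC2, FUS3, ABI3, PHE1, WOX2, WOX8 and the storage protein gene CRU3 covered over 100%. LEC1 was covered over 95.6%, DOG1, a seed dormancy gene, over 69.9% and FWA, a homeobox gene active in endosperm, over 51.5%.

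The genes for the Polycomb and demethylase machinery were mostly free of the mark. Of 9 PRC2 and PRC1 genes only the seed-specific MEA, covered over 100%, and FIS2, covered over 68.6%, passed the limit. CLF, SWN, EMF2, VRN2, FIE, MSI1 and LHP1 had no covered base. No base of the demethylase genes REF6, ELF6, JMJ13, JMJ30 and JMJ32 was covered, nor of the 12 housekeeping genes, ACT2 and UBQ10 among them.

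**Figure D3:**
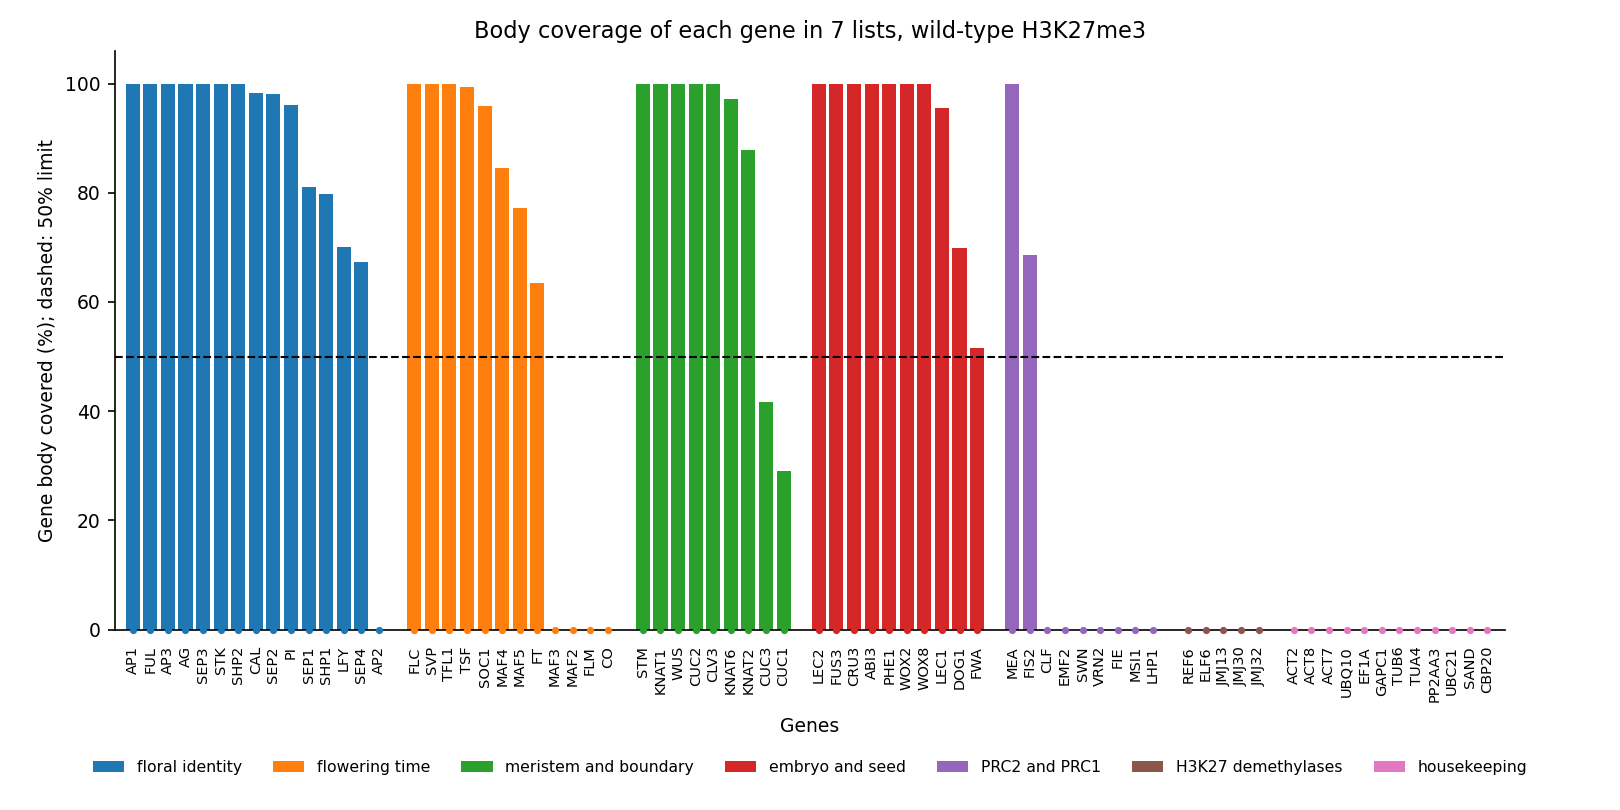
Body coverage by wild-type H3K27me3 domains for each of the 72 genes in 7 lists, sorted within each list, with the 50% limit dashed. Dots on the axis mark every gene, so genes with no covered base appear as a dot alone. Floral, meristem and seed genes fill the upper range, and the demethylase and housekeeping lists lie at 0.

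Marked genes seldom had a REF6-GFP summit beside them. A summit lay in the body or within 1 kb of 13.3% of marked genes (interval 12.5 to 14.2%), against 25.1% of all coding genes. By coverage the share was 7.22% of fully covered genes, 14.9% at 90 to under 100%, 22.6% at 50 to 90%, 34.4% at 10 to under 50%, 35.1% at up to 10% and 28.2% of genes with no covered base. Gene length moved with coverage, with medians of 1294 bp for fully covered and 2270 bp for uncovered genes, and its part in these shares was not tested. Of the 6505 marked genes 6061 (93.2%) were also covered over at least 50% in the triple mutant. That share was 97.7% for fully covered genes and 85.0% for genes covered over 50 to 90%. Over all coding genes the triple mutant share was 30.9%.

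Domains held few genes. A coding gene was assigned to a domain that alone covered at least 50% of its body, and the mean was 0.807 genes per domain. No coding gene was assigned to 3315 domains (41.9%), and 3432 held 1 (43.4%), 800 held 2 (10.1%), 226 held 3, 86 held 4 and 55 held 5 or more. The 1167 domains with 2 or more genes made up 14.7% of domains and 37.7% of the covered length, and they held 45.4% of the marked genes. These shares depended on the list: with −log10 q of at least 10, 20.5% of domains held no coding gene and 23.2% held 2 or more, and joining domains across gaps of up to 2000 bp gave 25.9% with 2 or more. A further 118 marked genes reached the limit only through several domains together.

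Wider domains held more genes, an order that the assignment rule favours, since only a wide domain can cover at least 50% of several genes. Median width was 796 bp for domains without a coding gene, 2128 bp with 1, 4831 bp with 2, 7054 bp with 3, 9394 bp with 4 and 13304 bp with 5 or more. The median fold, as deposited, was 1.57 without a gene, 2.61 with 1 and 3.72 with 5 or more. In domains with a single gene the domain was 1.25 times as long as the gene at the median. Width and gene length rose together across these 3432 pairs (Spearman's rho 0.524). This is a description across genes, and both are bound by the rule that 50% of the gene must lie in the domain.

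**Figure D4:**
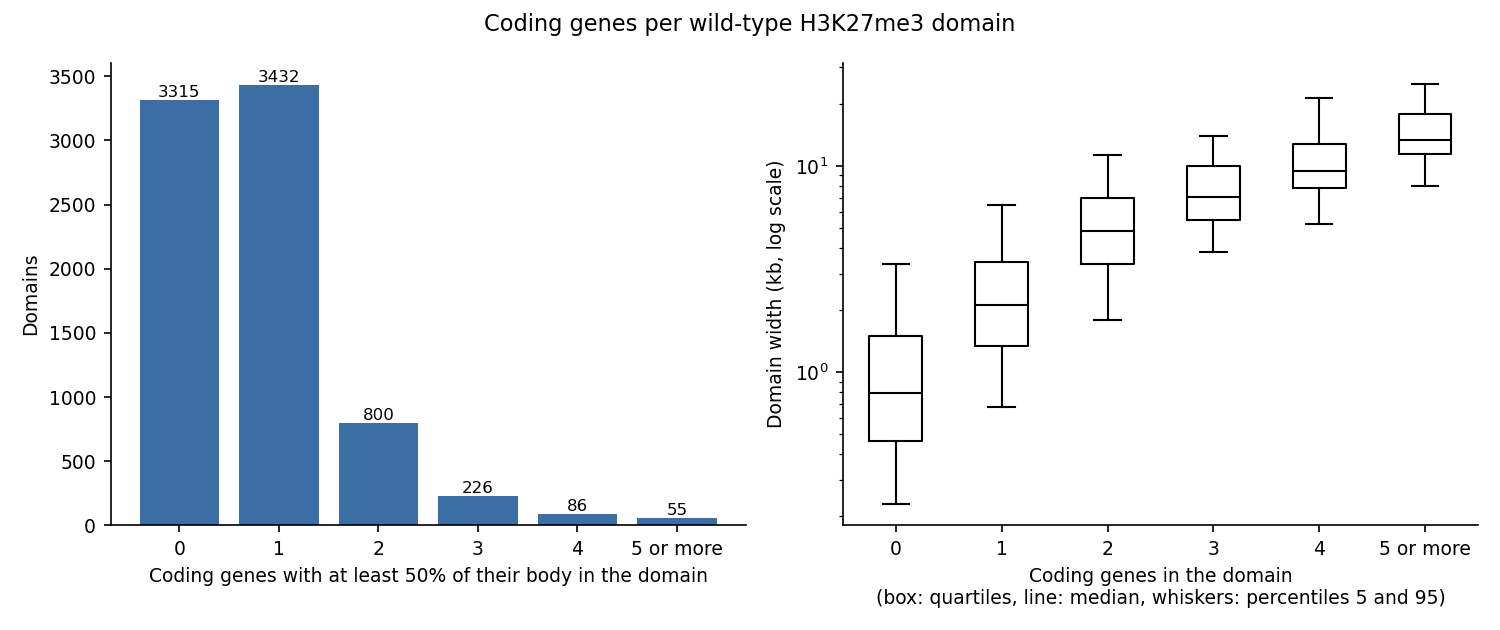
Left: number of wild-type H3K27me3 domains by the coding genes they hold. Right: domain width in kb on a log scale for the same classes, with boxes from the lower to the upper quartile, medians as lines and whiskers at percentiles 5 and 95. Median width runs between 796 bp without a gene and 13304 bp with 5 or more.

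The 3315 domains without a coding gene lay outside coding genes, inside a single one or across an end of one. Outside coding genes lay 1319 of them (39.8%, median 774 bp), and another 401 (12.1%) outside coding genes that covered a noncoding gene or pseudogene over at least 50%. Inside a single coding gene lay 1000 (30.2%, median 560 bp). The remaining 508 and 87 domains crossed the end of a coding gene, and the 87 also held a marked gene of another type. Many of these domains were weak, with a median −log10 q of 4.48, against 33.7 for domains with 1 gene.

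The strongest single-gene domains had folds between 6.04 and 7.38. Among fully covered genes with a symbol that were the only gene assigned to their domain, the highest fold was 7.38 at CHX24, a cation exchanger. NAC105, a factor of xylem vessels, followed at 7.12, then FLC at 6.91, the seed storage gene CRA1 at 6.8, and PER1, a seed peroxiredoxin, at 6.74. HEC1, a factor of carpel development, had 6.4, LSH7 6.33, the phosphate transporter PHT1;6 6.31, MYB5, a seed coat factor, 6.15 and MCT1 6.04. The domains over CRU3 and ABI3 had folds of 5.08 and 6.0.

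The domains with most genes held rows of genes that mostly have no symbol. The domain chr4:11838595-11859435, 20841 bp wide with a fold of 3.61, held 14 coding genes between AT4G22460 and AT4G22530, and 13 of them were covered over 100%. The domain chr1:8352764-8378264 held 13 genes between AT1G23560 and AT1G23690. The domain chr1:20144020-20163768 held 9 genes, among them GLIP2, GLIP3 and GLL22 of the GDSL lipase group. The widest domain, chr1:18988839-19018165 at 29327 bp, held 8 genes covered over 100%, among them WIP5 and LPAT3, an acyltransferase gene. The domain chr3:18586181-18611103 held 8 genes between AT3G50123 and AT3G50190, and chr3:7724124-7752300 held 7 between AT3G21940 and AT3G21990. In contrast, chr5:18283632-18310770 was 27139 bp wide and held 4 genes.

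Tandem family members shared some domains. Of the 1167 domains with 2 or more genes, 64 (5.48%) held at least 2 members of a single named family. Only 3044 of the 27444 coding genes were in a named family, so tandem genes outside these families were not counted. The glycine-rich proteins GRP16, GRP17, GRP18, GRP19 and GRP20 lay in a domain of 11487 bp, and UGT85A1, UGT85A2, UGT85A3, UGT85A5 and UGT85A7 in a domain of 17882 bp. CLE4, CLE5, CLE6 and CLE7 lay in a domain of 22898 bp, and RALFL10 to RALFL13 in a domain of 19506 bp. The 7 marked ABCA genes lay in 3 domains, 3 of them in a domain of 16571 bp (ABCA4, ABCA5 and ABCA6) and 3 in a domain of 21098 bp (ABCA9, ABCA11 and ABCA12). Tandem copies can be alike in sequence, and the sources used here do not say how reads matching several copies were placed.

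Marked genes were neighbours more often than unmarked genes were beside marked ones. The next coding gene along the chromosome was also marked for 44.7% of marked genes, against 17.2% of unmarked genes. Of the 2910 pairs of marked neighbours 1812 (62.3%) lay in a single domain. The marked genes formed 3595 runs, of which 2115 (58.8%) were a single gene and the longest held 16 genes.

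Domain edges were placed against the left and right ends of genes on the chromosome, since gene strand was not used here. Starts and ends of transcription are therefore not told apart. Of the 15828 edges 42.9% lay inside a coding gene (interval 42.1 to 43.6%), where 54.1% of the span is coding. Edges lay within 200 bp of a gene end in 29.3% of cases, and 16.0% of all positions of the span do. The share was 41.8% for domains with a coding gene, at a median distance of 266 bp, against 11.9% and 876 bp for domains without one. Domains with a gene are by definition those that cover at least 50% of one, a rule that itself brings edges near gene ends. The share was 29.7% for left edges and 28.9% for right edges.

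Edges of domains with genes were spread on both sides of the outer end of their outermost marked gene. Measured outward from that gene's end, the edge lay at a median of 104 bp beyond it, 105 bp on the left and 102 bp on the right, with quartiles at −137 and 740 bp. It lay beyond the gene in 60.3% of 9198 edges, within 200 bp of the gene end in 37.6% and over 1 kb beyond in 19.7%. For domains with 2 or more genes the median was 178 bp, and for single-gene domains 77.5 bp. Of the 3432 single-gene domains 1281 (37.3%) reached beyond the gene on both sides, 1437 (41.9%) on a single side, and 714 (20.8%) ended inside the gene on both sides.

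Most edges fell inside the outermost marked gene or in the gap beyond it. A next gene covered over at least 50% by the domain would itself count as the outermost marked gene, so the assignment rule limits how often an edge can lie in the next gene. Of the edges 39.6% lay inside the marked gene, 54.8% in the gap to the next coding gene, 5.5% in that next gene and 0.087% past it. The share inside the next gene was 11.5% where the gap was under 500 bp and 0.406% where it was 5000 bp or more. The share still inside the marked gene was 66.1% at the shortest gaps and 27.2% at the longest. Where the edge fell in the gap, the domain had covered a median of 27.9% of it and ended 1177 bp short of the next gene.

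Outside marked genes the coverage of flanking sequence fell with distance from the gene end, but around all coding genes it did not fall steadily. Outside fully covered genes a domain was present at 72.1% of gene ends at 500 bp, 60.3% at 1000 bp, 48.9% at 2000 bp and 32.7% at 5000 bp. Over all coding genes it was present at 17.9% of ends at 500 bp and 20.4% at 1000 bp. At 5000 bp the fully covered genes were thus still above the level around coding genes in general, which was 19.7% there.

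**Figure D5:**
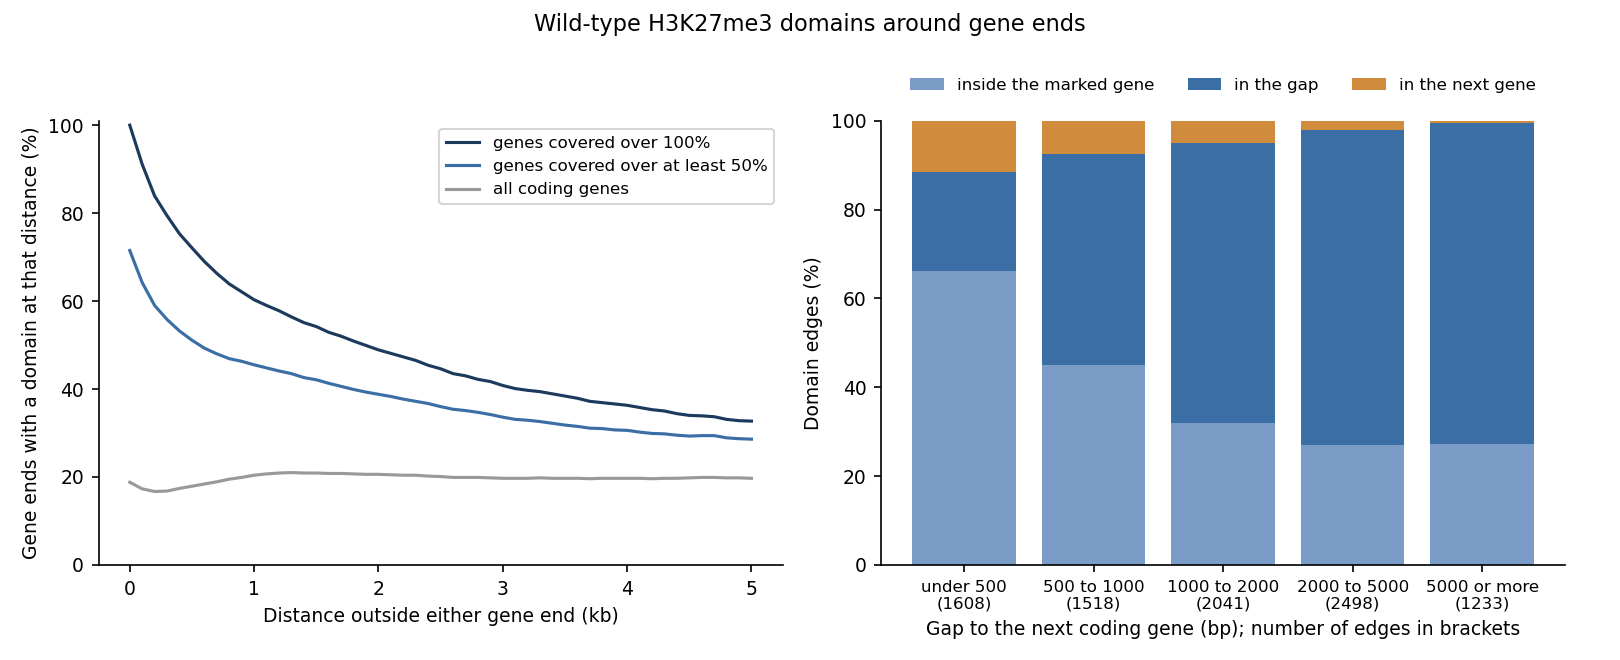
Left: share of gene ends, left and right together, with a wild-type H3K27me3 domain at each distance outside the gene, for genes covered over 100%, genes covered over at least 50% and all coding genes. Right: where the outer edge of a domain with genes fell, by the gap to the next coding gene. Edges in the next gene make up 11.5% at gaps under 500 bp and 0.406% at 5000 bp or more.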

How the data were processed

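Peak lists of chromatin immunoprecipitation with sequencing were used as deposited. Per the submitters' processing notes, the build was TAIR10 and the tools included MACS2 2.1.0, Bowtie 1.1.2, deepTools and Picard 2.60, with roles and settings not stated. The deposited lists have no header, and the MACS2 order for broad peaks was used for their columns. Since the word pooled stands in entry names, a list was treated as 1 call over a group's samples. The fold enrichment of a domain is the authors' linear ratio over a control that the sources used here do not name. The −log10 q values are the authors' as deposited, and 604 domains have a q above 0.05. Summit offsets are those of the deposited REF6 list. Read depth is unknown from these lists.

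Gene names, types and positions came from a RefSeq table of TAIR10.1, used without strand, exons or sequence. REF6-GFP summits fell in coding genes in 85.9% of cases unshifted and in 66.5% after a shift of 1 kb, so both sets of positions were used together. Printed coordinates are those of the deposited lists. All 72 list genes were matched by identifier. Coverage, genes per domain and edges were computed in Python 3.11 scripts and tested on simulated data. No test was run, because the wild type has 1 pooled list. The members, gene lists and families were chosen with earlier results of these data known. Named genes are list members, genes of the 5 domains with most genes and the 5 widest, the 10 strongest single-gene domains with a symbol, marked miRNA genes, and 3 genes on each side of the limit. Some genes that shared a name with a family but encode another protein were left out of it by identifier. Others remained: HB1 (AT2G16060, no covered base) and HB2 (AT3G10520, covered over 100%) are haemoglobin genes in the homeobox family. They also count in the transcription factor class. Family members beyond these were named after their values were seen. A planned promoter motif count was not run, since no sequence was used here.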

Additional observations from a re-analysis of the deposited data

How the results depend on the processing

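The marked share of coding genes was 18.6% at a limit of 80%, 28.0% at a limit of 20% and 20.4% with domains of −log10 q of at least 10, and it moved only to 23.4% with domains of q of at most 0.05. At the limit of 80% lncRNA genes came to 23.5%, pseudogenes to 3.19% and transcribed pseudogenes to 25.9%, while miRNA genes stayed within their interval at 41.1%. With the stricter q these shares were 21.5%, 3.04%, 25.1% and 34.0%. Families with more than 50% marked members numbered 12 at the limit of 80% and 16 with the stricter q. Families under 5% numbered 23 and 22. No family share was higher under either setting: of 98 families 62 were lower at the limit of 80% and 48 with the stricter q. Listed genes at the limit came to 33 and 38 of the 72. With the stricter q, 20.5% of domains held no coding gene, 56.3% held 1 and 23.2% held 2 or more. In that setting 38.9% of edges lay in coding genes and 35.2% within 200 bp of a gene end. Joining domains across gaps of up to 500 bp changed nothing, since the smallest gap is 657 bp. Joining across 2000 bp, chosen after seeing the data, gave 30.9% without a gene, 43.2% with 1, 25.9% with 2 or more, 44.2% of edges in genes and 31.3% within 200 bp of a gene end. A higher limit or fewer domains can only lower coverage shares; the cause of the other shifts was not tested. No paired analysis was possible because the wild type has 1 list called on pooled samples, and for the same reason no replicate could be left out. The promoter motif alternative was not run. Without strand, exons or depth, edges cannot be assigned to transcription starts, and weak domains cannot be weighed against sequencing depth.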
